A study of Homo sapiens with 6 samples.

Results

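CTGF, CYR61 and ANKRD1 are the genes most often used to read out the activity of YAP, and here they are described by where YAP, its DNA-binding partner TEAD and a tagged YAP mutant had chromatin immunoprecipitation (ChIP-seq) peaks around them. The peaks were those of 3 lists within 100 kb of the 3 gene spans in the human genome build hg19. They numbered 36 of 22804 listed peaks: 5 of 3867 YAP peaks, 20 of 9321 TEAD peaks and 11 of 9616 peaks of the mutant. By gene, 12 lay around CTGF, 21 around CYR61 and 3 around ANKRD1. Membership of a peak rested on its position alone, not on any measured value. The genes themselves, known YAP targets, were chosen with earlier results of these data known.

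All libraries came from CClp1 cells, a human line in established use. There were 6 groups of 1 library each: Flag-Bio-YAP5SA, YAP, TEAD, BirA, IgG and input DNA. Flag-Bio-YAP5SA, called YAP5SA below, is a tagged YAP in which serines phosphorylated by LATS kinases are replaced by alanine, and the design text gives BirA as its control. That text names TEAD1 for the TEAD library and mentions more than 1 YAP antibody. Which of them made the YAP list, how YAP5SA was expressed and whether other libraries carried BirA are not given in the labels. The 3 control libraries (BirA, IgG, input) had no peak list here, and the values therefore have no control level beside them. With 1 library per group no value has a replicate error and no test between libraries was possible.

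YAP is a transcriptional co-activator held in check by the Hippo kinases. It does not bind DNA itself and reaches its genes through TEAD proteins, which recognise the letters CATTCC, often beside sites of the transcription factor AP-1. CTGF and CYR61 encode secreted matricellular proteins of the CCN family, CCN2 and CCN1, which act on adhesion and matrix through integrins. ANKRD1 encodes an ankyrin-repeat protein of the nucleus and the muscle sarcomere, best known from heart and skeletal muscle.

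The promoters of CTGF and ANKRD1 are shown, because the promoter set used held no sequence for CYR61. They are RefSeq sequences of GRCh38.p14, from 250 bases before to 50 bases after the start, read 5′ to 3′ on the minus strand at chr6:131951323-131951622 and chr10:90921038-90921337. Capitals mark CATTCC or its reverse complement GGAATG, and the AP-1 letters TGANTCA, searched on both strands.
CTGF: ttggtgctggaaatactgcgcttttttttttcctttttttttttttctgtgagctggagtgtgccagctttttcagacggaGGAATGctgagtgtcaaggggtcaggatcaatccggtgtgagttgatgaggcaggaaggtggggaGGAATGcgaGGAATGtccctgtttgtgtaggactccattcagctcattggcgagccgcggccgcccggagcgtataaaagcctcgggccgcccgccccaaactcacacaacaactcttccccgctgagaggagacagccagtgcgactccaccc
ANKRD1: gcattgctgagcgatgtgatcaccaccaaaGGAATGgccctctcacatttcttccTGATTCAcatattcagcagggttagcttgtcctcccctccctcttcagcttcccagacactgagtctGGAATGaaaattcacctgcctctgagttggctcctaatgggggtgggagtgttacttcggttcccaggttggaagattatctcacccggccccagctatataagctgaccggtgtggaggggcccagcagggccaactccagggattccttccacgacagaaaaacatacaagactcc

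The CTGF promoter held 3 matches to CATTCC, all as GGAATG, whose first bases lay 169, 104 and 95 bases before the start. At least 3 matches occurred in 45 of the 35116 promoters of the same length (0.128%), and at least 1 in 14%. The ANKRD1 promoter held 2 matches, at 220 and 128 bases before the start, with 1 AP-1 match between them at 195 bases. At least 2 CATTCC matches together with a TGANTCA match occurred in 57 promoters (0.162%). The motifs do not overlap each other in either sequence. At least 2 CATTCC matches alone occurred in 1.37% of promoters, and a TGANTCA match in 7.71%. Both promoters thus carried the TEAD letters. A match is a description of the sequence and not a binding site.

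The start of CTGF was the one place near the 3 genes where peaks of all 3 lists met. The TEAD peak there, chr6:132272336-132272890, had a score of 3100, the highest in the TEAD list, reached by 8 of 9321 TEAD peaks. The score is the authors' deposited value for a peak and ranks peaks within their own list only. The highest score was 3100 in each of the 3 lists, so it looks like a ceiling, and the 8 TEAD peaks at it cannot be ranked among themselves. The YAP peak, chr6:132272413-132272872, scored 186.25 and ranked 77 of 3867, and the YAP5SA peak, chr6:132272299-132272858, scored 319.43 and ranked 25 of 9616. The CTGF start therefore stood near the top of each list, with 1.99% of YAP peaks, 0.0858% of TEAD peaks and 0.26% of YAP5SA peaks at or above its scores. All 8 TEAD peaks with that top score overlapped both a YAP and a YAP5SA peak, against 4.48% (YAP) and 5.49% (YAP5SA) of all TEAD peaks.

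The CTGF peaks coincided closely. The TEAD peak was 555 bp wide, covered all 460 bp of the YAP peak and shared 523 bp of the 560 bp YAP5SA peak. Their centres lay within 64 bp, against a median of 146 bp over the 73 regions of the series with all 3 lists. Of those regions, 24.7% had centres as close or closer. The centres were 0.36 kb (YAP), 0.39 kb (TEAD) and 0.42 kb (YAP5SA) from the start. The span of each gene is known to whole kb, so a distance under 1 kb places a peak at the start but does not say on which side of it.

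**Figure D1:**
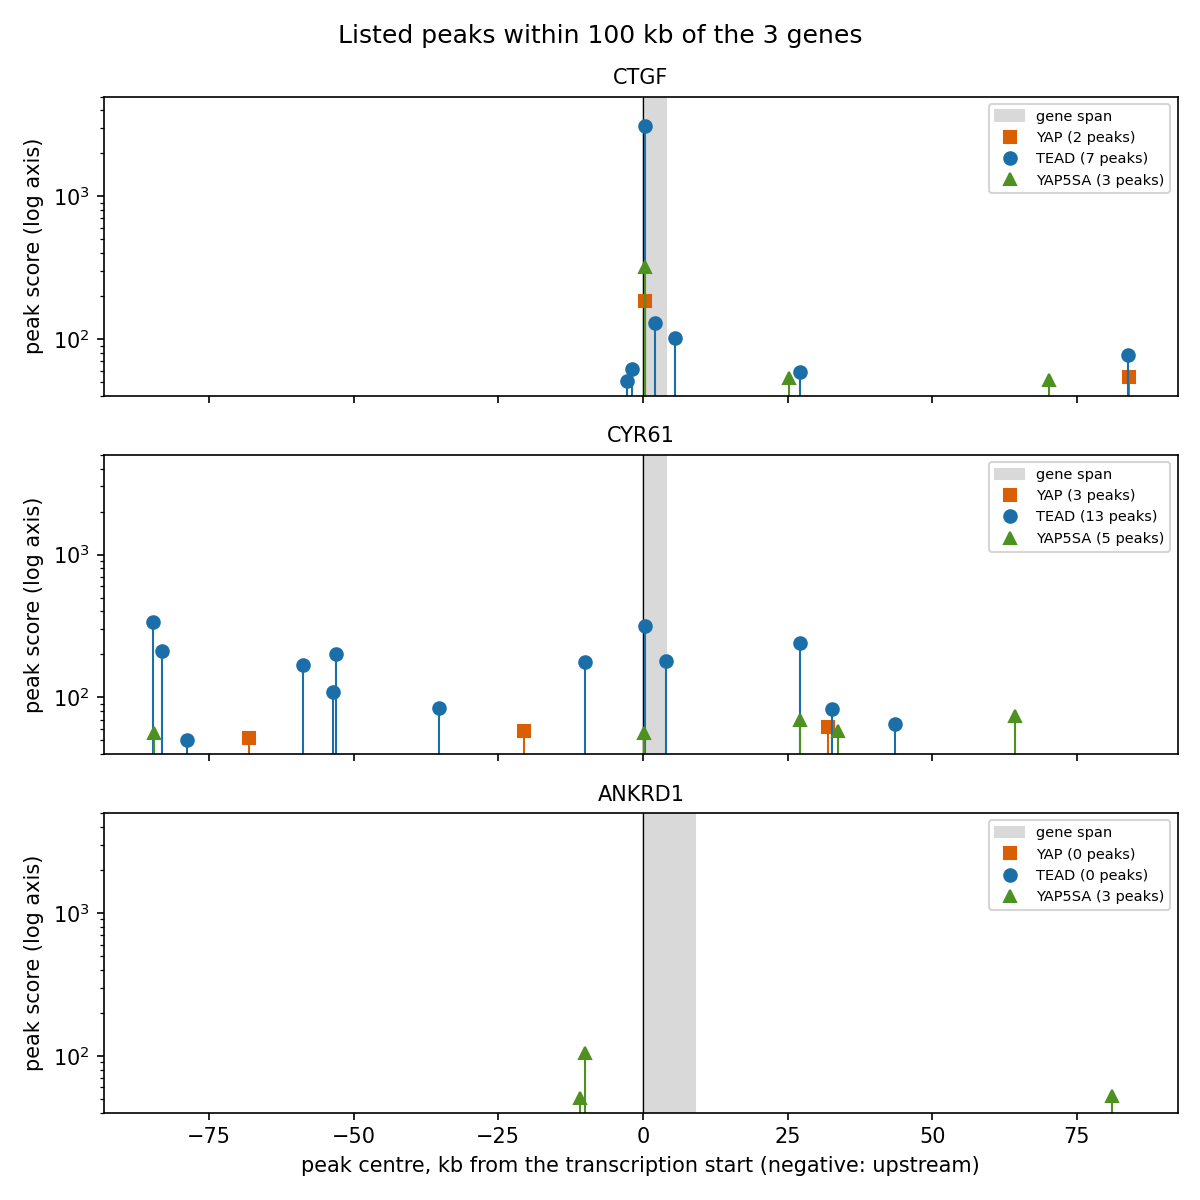
Score of each listed peak (log axis) against the distance of its centre from the transcription start in kb, in the direction of the gene, for CTGF, CYR61 and ANKRD1. Squares are YAP, circles TEAD and triangles YAP5SA; grey marks the gene span. All 3 lists meet at the CTGF start, TEAD and YAP5SA at the CYR61 start, and only YAP5SA peaks lie around ANKRD1.

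Around CTGF the remaining TEAD peaks were much weaker, with scores from 51.14 to 129.49. A peak of 129.49 lay in the gene span, 2.17 kb from the start, and a peak of 102.54 lay 5.62 kb downstream of it. Peaks of 61.81 and 51.14 lay 1.88 and 2.75 kb upstream. With the peak at the start, these formed a cluster of 8.56 kb across the gene, where a cluster means at least 3 peaks of 1 list with gaps of no more than 12.5 kb. Thus 5 of the 7 TEAD peaks lay in a cluster, against 29.5% of the whole TEAD list. A locus with many peaks has shorter gaps between them, so this share is not separate from the peak count. Of the 559 TEAD clusters, 32.4% held as many peaks or more. The YAP and YAP5SA lists had no second peak within 10 kb of the span, so all weaker members of the cluster were TEAD peaks alone.

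Farther from CTGF, all peaks lay downstream, with scores from 52.17 to 77.67. A YAP peak of 53.9 met a TEAD peak of 77.67 by 21 bp at 84.0 and 83.8 kb, with no YAP5SA peak within 13.6 kb of the YAP peak. A TEAD peak of 59.36 lay at 27.2 kb, with a YAP5SA peak of 53.89 at 25.2 kb that did not touch it. A YAP5SA peak of 52.17, a score reached by 79.6% of its list, lay alone at 70.1 kb. The YAP peak of the shared site scored below the median of its list, which was 57.89, and the site no longer counts as shared when a reciprocal overlap of 50% is asked for.

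At CYR61, 13 TEAD peaks were spread along both sides of the gene. Of the 5 YAP5SA peaks 3 met one of them, against 5.44% of the whole YAP5SA list. None of the 3 YAP peaks did, against 8.28% of the whole YAP list, a share at which 3 peaks without a TEAD partner are no result about CYR61. The TEAD peak at the start, chr1:86046181-86046485, scored 317.98, a score reached by 9.12% of the TEAD list. The YAP5SA peak there, chr1:86046105-86046392, shared 212 bp with it and scored 56.06, close to the YAP5SA median of 56.955. Their centres lay 0.33 kb (TEAD) and 0.25 kb (YAP5SA) from the start. The nearest YAP peak, chr1:86025245-86025519, was centred 20.6 kb upstream and scored 57.79. A site without a listed YAP peak may still bind YAP, since the depth of the libraries is unknown and the YAP list is the shortest.

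The TEAD peaks of CYR61 with the 3 highest scores were the 3 that met a YAP5SA peak. The first, with a score of 335.3, lay 84.7 kb upstream and contained all 122 bp of a YAP5SA peak of 56.46. The next was the peak at the start, and the last, with a score of 242.37, lay 27.1 kb downstream and contained all 218 bp of a YAP5SA peak of 69.42. The other 10 TEAD peaks scored from 50.05 to 211.63. Over the whole TEAD list, 324 of the 1159 peaks with a score of at least 242.37 met a YAP5SA peak (28%), against 5.49% of all TEAD peaks. At CTGF, too, the TEAD peak that met YAP5SA was the highest of the 7.

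**Figure D2:**
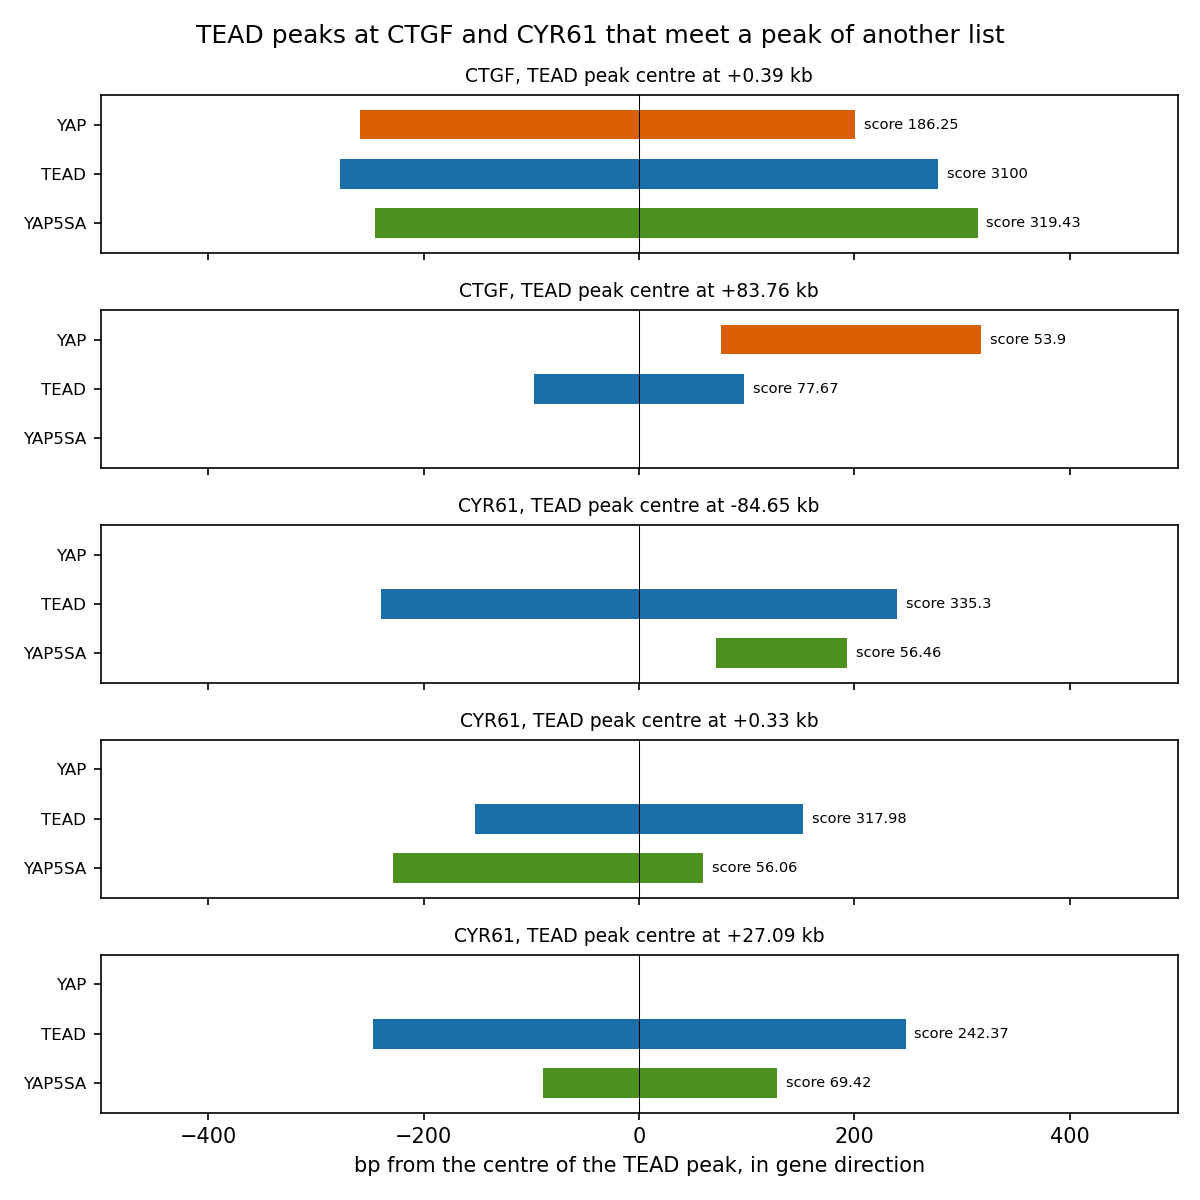
Extent of each peak in bp from the centre of the TEAD peak, in gene direction, for the 5 TEAD peaks at CTGF and CYR61 that met a peak of another list. Bars are peaks, labelled with their scores, and an empty row means that the list has no peak there. At the CTGF start the 3 bars nearly coincide, while at the CYR61 start the YAP5SA peak reaches farther upstream than the TEAD peak and no YAP peak is listed.

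Of the CYR61 TEAD peaks, 12 of 13 belonged to 4 clusters of 3 peaks each, against 29.5% of all TEAD peaks in clusters. Here too the share is not separate from the high number of peaks. The cluster at the start ran over 14.4 kb, with a peak of 176.29 at 10.0 kb upstream, the start peak, and a peak of 179.86 at 4.05 kb, at the end of the gene span. A cluster of 6.19 kb lay farthest upstream, around 84.7 to 78.8 kb, and 1 of 6.12 kb lay 58.7 to 53.0 kb upstream, with scores of 168.13, 108.8 and 200.73. The downstream cluster, of 16.8 kb, held peaks of 242.37, 82.85 and 65.48 at 27.1, 32.7 and 43.6 kb. A single TEAD peak outside clusters, of 84.34, lay 35.2 kb upstream. The smallest cluster that counts is 3 peaks, so none of these clusters stands out among the 559 by its number of peaks.

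The 3 YAP peaks and 2 of the YAP5SA peaks at CYR61 overlapped no TEAD peak. The YAP peaks scored 51.84, 57.79 and 61.9, against a list median of 57.89. The lowest of them was reached by 90.9% of the YAP list. The strongest of them, 32.1 kb downstream, lay 337 bp from a TEAD peak of 82.85 and 1389 bp from a YAP5SA peak of 58.04. That YAP5SA peak lay 832 bp from the same TEAD peak on its other side, so single peaks of all 3 lists lay within a short stretch without touching. The other YAP peaks lay 68.1 and 20.6 kb upstream and were 8922 and 10291 bp from the nearest TEAD peak. A YAP5SA peak of 73.6, the highest YAP5SA score at CYR61, lay alone 64.2 kb downstream.

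ANKRD1 had no YAP and no TEAD peak within 100 kb of its span. The nearest TEAD peak, with a score of 148.69, was centred 277 kb downstream of the start, and the nearest YAP peak, with a score of 71.92, 507 kb upstream. The start lay in a stretch of 1240 kb without a TEAD peak and of 1850 kb without a YAP peak. Such stretches are common in these lists: 50.9% and 42.5% of genome windows of 204 kb are centred in stretches at least as long for TEAD and YAP.

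YAP5SA did have peaks at ANKRD1. The strongest, chr10:92690898-92691141, was centred 10.0 kb upstream of the start with a score of 104.75, reached by 2.78% of the YAP5SA list. A second peak of 50.41, almost at the floor of the list, lay next to it at 10.9 kb. A peak of 52.17 lay 81.1 kb downstream and was weak as well, with 79.6% of the list at or above it. Exactly that score was held by 599 YAP5SA peaks. The peak of 104.75 was the highest-scoring YAP5SA peak near CYR61 and ANKRD1, above the 73.6 at CYR61 and below the 319.43 at the CTGF start. In the whole list, 267 YAP5SA peaks scored at least as high, of which 171 met a TEAD peak (64%) and 93 met neither a TEAD nor a YAP peak (34.8%).

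**Figure D3:**
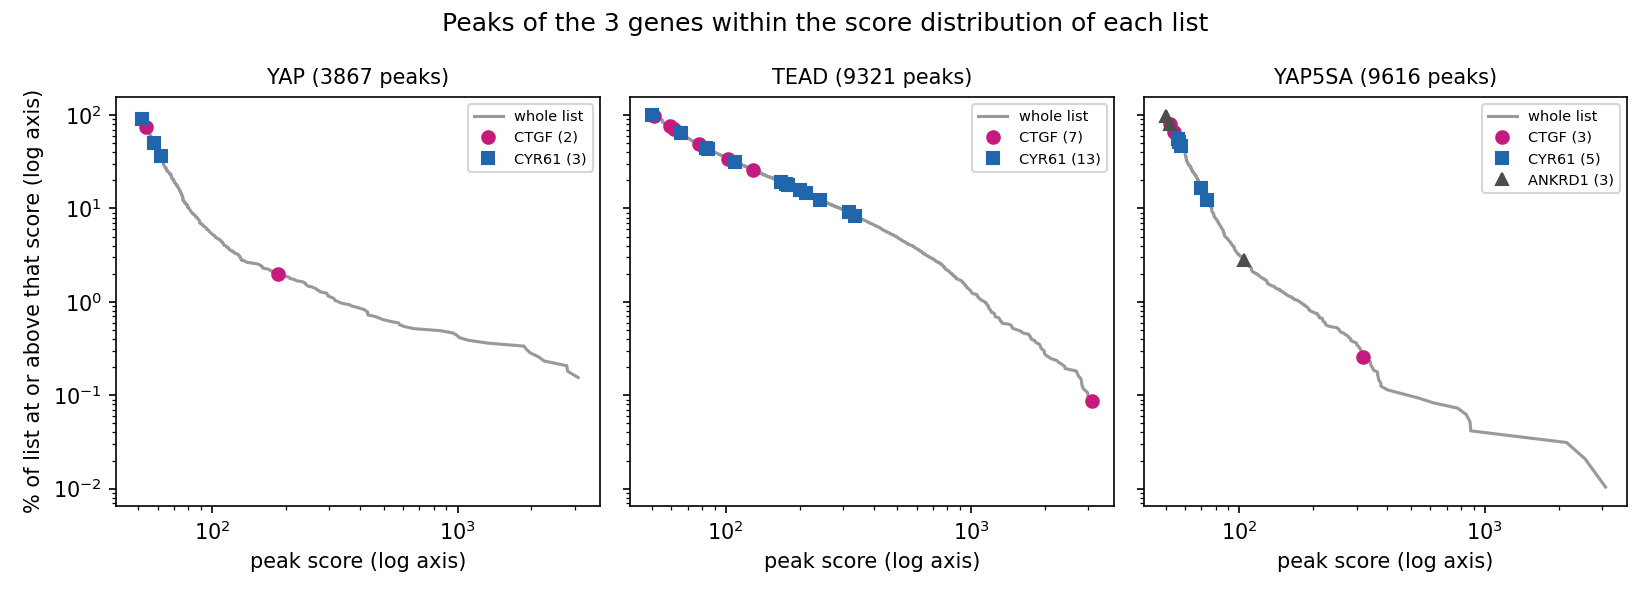
Percent of each list at or above a score (log axis) against the score (log axis): the line is the whole list, and the points are the peaks near CTGF (circles), CYR61 (squares) and ANKRD1 (triangles). In each list the CTGF start has the highest score of the 3 loci, the CYR61 TEAD peaks spread from 50.05 to 335.3, and most YAP and YAP5SA points lie near the floor of 50.

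Set beside the whole lists, the peaks of the 3 loci can be counted as follows. Of the 20 TEAD peaks, 4 met a YAP5SA peak, against 5.49% of all TEAD peaks, and 2 met a YAP peak, against 4.48%. Of the 11 YAP5SA peaks, 4 met a TEAD peak, against 5.44% of that list, and 1 met a YAP peak, against 1.15%. Of the 5 YAP peaks, 2 met a TEAD peak (both at CTGF), against 8.28%, and 1 met a YAP5SA peak, against 2.64%. In clusters lay 17 of the 20 TEAD peaks, against 29.5%, and none of the YAP (8.82% in the whole list) or YAP5SA (1.41%) peaks. The TEAD share in clusters is not separate from the number of TEAD peaks per locus. Peaks of 1 locus are not independent of each other, and the 3 genes were chosen as known YAP targets, so these counts describe the loci and no test was made of them.

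Low-scoring YAP5SA peaks rarely met TEAD in the series as a whole. Of the 5748 YAP5SA peaks with a score of at most 60, 122 met a TEAD peak (2.12%). The YAP5SA peaks at the CYR61 start and 84.5 kb upstream of it, with scores of 56.06 and 56.46, are among those 122. All other YAP5SA peaks around CTGF, CYR61 and ANKRD1 with a score of at most 60 met no TEAD peak. Their scores were 52.17 and 53.89 at CTGF, 58.04 at CYR61, and 52.17 and 50.41 at ANKRD1.

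The number of peaks per locus was read against 14714 windows of 204 kb along chromosomes 1 to 22, X and Y. At least 1 YAP peak was found in 20.3% of windows, at least 1 TEAD peak in 29.1% and at least 1 YAP5SA peak in 45%. At least 7 TEAD peaks, as at CTGF, were found in 1.47% of windows, and at least 13, as at CYR61, in 0.401%. The 5 YAP5SA peaks of CYR61 were reached by 0.258% of windows, and the 3 YAP5SA peaks of CTGF and of ANKRD1 by 3.87%. For YAP, 3.13% of windows held 2 peaks or more, as CTGF did, and 0.727% held 3 or more, as CYR61 did. That last share was 0.403% in windows away from long peak-free stretches, a setting chosen after seeing the data.

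**Figure D4:**
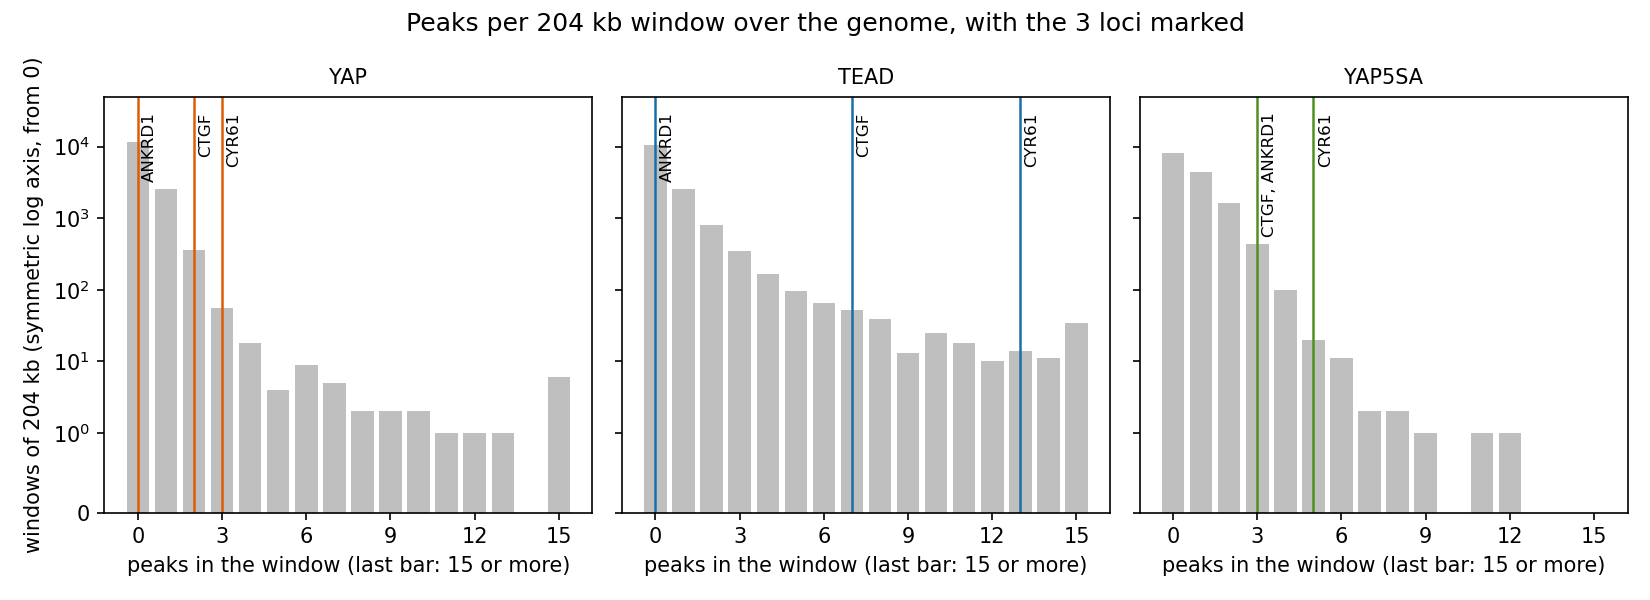
Number of 204 kb genome windows (symmetric log axis from 0) by the number of peaks they hold, for YAP, TEAD and YAP5SA. Vertical lines mark the counts at the 3 loci: 2, 3 and 0 YAP peaks, 7, 13 and 0 TEAD peaks, and 3, 5 and 3 YAP5SA peaks at CTGF, CYR61 and ANKRD1.

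A region with all 3 lists, as at the CTGF start, fell in 71 windows (0.483%). At least 1 peak of each list, touching or not, as at CTGF and CYR61, was found in 4.08% of windows. Windows without any YAP or TEAD peak, as at ANKRD1, made up 57.9%, and 23.4% of all windows had a YAP5SA peak but none of the other lists. The lack of YAP and TEAD peaks at ANKRD1 is thus the commoner state of a window of this length. ANKRD1's own window is 209 kb, slightly longer than those it is read against.

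Peaks inside these windows need not belong to the gene that names them. In the RefSeq gene order of GRCh38.p14, the protein-coding neighbours of CTGF are ENPP1, which makes pyrophosphate outside the cell, and MOXD1. CYR61 lies between DDAH1, which breaks down methylated arginines, and ZNHIT6. ANKRD1 lies between RPP30, a subunit of RNase P, and PCGF5, a Polycomb protein. No hg19 annotation was used here, so no peak was assigned to an exon, an intron or a neighbour's promoter.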

How the data were processed

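ChIP-seq of CClp1 cells was measured in 6 libraries, of which 3 peak lists (YAP, TEAD, YAP5SA) were used. Per the labels' protocols, cells were fixed for 10 min in 1% formaldehyde and sheared to about 250 bp. Reads were aligned to hg19 with Bowtie2, per the submitters' processing notes. The score of each peak is the value the authors deposited in the list of its library. The peaks near the genes carry names that start with MACS, a peak caller. From its range alone the score looks like a scaled negative logarithm of the p-value. The version, threshold and control library of the peak caller were not stated, and read depth is unknown. Lists called against the same control can share peaks because of it.

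Starts were read as counted from 0 and are printed counted from 1. A negative start was set to 0. Peaks within 100 kb of each span were taken, the span being known to 1 kb, and the start site is its 5′ end. Peaks met when they overlapped by at least 1 bp. Genome windows of 204 kb, the median length of the 3 loci, ran from the first to the last listed base of each chromosome. Promoter sequences and gene order came from RefSeq GRCh38.p14, never combined with hg19 coordinates. Sequences were matched for 2 of the 3 genes, CTGF and ANKRD1.

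The members, motifs and settings were chosen with earlier results of these data known. The genes named are the 3 members and their next protein-coding neighbours. On simulated lists, 45 of 45 planted peaks and 6 of 6 planted shared regions were recovered. Other peaks had been cleared from around the genes first, so this checks only the counting of peaks and overlaps. Alternatives were other flanks, overlaps, score limits, start positions and window sizes. Python 3.11.15, numpy 2.4.6, pandas 2.3.3 and matplotlib 3.10.9 were used.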

Additional observations from a re-analysis of the deposited data

How the results depend on the processing

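Of 59 recomputed values, 46 stayed within their limits (counts within 1.5 times, distances within 1 kb, window shares within their exact 95% binomial interval) and 13 moved. The 46 include all 27 distances. Where the start was moved by 1 kb, a distance could not change by more than that limit, so those values show nothing about stability. No peak near the genes was wider than 595 bp, so leaving out peaks over 1 kb could change no count. For narrow peaks, a distance to the nearest edge also has little room to differ from that to the centre. The 46 values are therefore no measure of stability. Of the peak counts 10 stayed and 5 moved, and of the window shares 4 stayed and 8 moved. With 50 kb flanks the peaks near the genes numbered 3 for YAP, 13 for TEAD and 7 for YAP5SA, by the smaller window itself. In the higher-scoring 50% of each list 2 YAP and 5 YAP5SA peaks were left. Windows of 100 kb held a YAP peak in 10.7%, a TEAD peak in 17.3% and a YAP5SA peak in 26.3% of cases, and windows of 400 kb in 35.3%, 44.2% and 67.1%, by their length. Away from stretches of over 2.5 Mb without any peak, a setting chosen after seeing the data, the shares were 30.3% for TEAD and 47.1% for YAP5SA. The region with all 3 lists at CTGF stayed 1 under each of the 5 settings run. Its place at the start, its scores and its close overlap already met each setting. None of them could have removed it, so this shows nothing about its stability. No paired analysis was possible because no group holds more than 1 library, and for the same reason no replicate could be left out. Unknown depth limits what a missing peak shows.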

Other observations

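Counts for flanks other than 100 kb have no genome share beside them here, so they only describe the 3 loci. Within 500 kb of the spans, CTGF had 3 YAP, 11 TEAD and 8 YAP5SA peaks, CYR61 had 3, 27 and 7, and ANKRD1 had 0, 1 and 4. The 14 further TEAD peaks around CYR61 were thus more than those gained at CTGF, which were 4, and at ANKRD1, which was 1. No YAP peak was gained around CYR61, where the list has none between 100 and 500 kb from the span. Each side of that zone is 400 kb long, and 35.3% of genome windows of 400 kb held a YAP peak. An empty stretch on a single side is thus common. No share was computed for both sides together. Close to the genes, within 10 kb, CTGF had 1 YAP, 5 TEAD and 1 YAP5SA peak, CYR61 0, 3 and 1, and ANKRD1 0, 0 and 1.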
